A study of Homo sapiens with 8 samples.

Results

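The messenger RNA of 39 human DNA replication and S phase genes was followed in 2 neuroblastoma cell lines, NGP and CHLA-20, after treatment with an inhibitor of PRMT5, an enzyme that methylates arginines of histones and splicing proteins. The genes were taken from a list by symbol and found in the deposited counts by their Ensembl identifiers through GENCODE release 29, as 39 of the 58721 genes counted. The 4 groups were NGP with JSK591, NGP with DMSO, CHLA-20 with JSK591 and CHLA-20 with DMSO, each treated for 6 days and each with 2 libraries. The sample labels call the inhibitor JSK591, while the treatment protocol calls it GSK591 and gives its dose as an IC50 with no concentration. No source used here says that these are the same compound, and JSK591 is the name used. NGP grew in RPMI and CHLA-20 in IMEM with insulin, transferrin and selenite, both with fetal bovine serum and streptomycin, so the line and the medium cannot be told apart. The question was how these genes differ between inhibitor and vehicle in each line and whether the 2 lines differ in this.

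Gene counts were 33188542 to 34914902 per library. Levels are given as CPM, the gene's counts scaled to a common library size with TMM factors, and 3 counts correspond to at most 0.0904 CPM. All 39 genes passed the filter on low counts. Changes are log2 changes with the SE of the fit. The labels do not say that replicates were separate cultures, so the p-values measure the spread between these libraries, which may be technical. Of the markers fixed for adrenergic neuroblastoma, PHOX2A, HAND2, GATA3 and ISL1 were above 60 CPM in every library, whereas CHGA was at 0 in all but 1 library and TH and DBH were under 1 CPM in NGP. MYCN averaged 2010 CPM in NGP with JSK591 and 2320 CPM in NGP with DMSO, and 2.81 CPM in CHLA-20 with JSK591 and 2.34 CPM in CHLA-20 with DMSO. The 15 markers of blood, epithelium, fibroblasts and endothelium summed to 692 and 654 CPM in NGP with JSK591, against 579 and 599 CPM with DMSO, and to 405 and 410 CPM in CHLA-20 with JSK591, against 479 and 482 CPM with DMSO. COL1A1 made up most of this sum in NGP, and LUM and DCN most of it in CHLA-20, while the blood marker PTPRC and the endothelial marker PECAM1 stayed at or below 0.118 CPM in all 8 libraries. The part of these other markers in the results on replication genes was not tested.

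Replication origins are licensed in G1, when CDC6 and CDT1 load the MCM2 to MCM7 ring onto DNA, and they fire in S phase, when CDC45 and the GINS complex join that ring to form the active helicase. DNA polymerases alpha, delta and epsilon then copy the strands. The RFC complex loads the sliding clamp PCNA, which holds delta and epsilon, and FEN1 and LIG1 join the lagging strand fragments. Many of these genes are transcribed at the transition from G1 to S by E2F factors, which cyclin E and its kinase release from the retinoblastoma protein.

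Because E2F binding sites lie close to the starts of many replication genes, promoters are shown for the genes with the highest and the lowest change past the threshold in each line among those whose sequence was used here. They are RefSeq sequences on GRCh38.p14, from 250 bases before to 50 bases after the start, on the gene's strand. Capitals mark a match to an E2F motif, searched on both strands as the words TTTCCCGC, TTTGGCGC, TTTCGCGC and TTTGCCGC, so a match on the other strand is printed as its reverse complement. CCNE1 and DTL stand for NGP, and FEN1 and CDT1 for CHLA-20.
CCNE1, plus strand, chr19:29811741-29812040: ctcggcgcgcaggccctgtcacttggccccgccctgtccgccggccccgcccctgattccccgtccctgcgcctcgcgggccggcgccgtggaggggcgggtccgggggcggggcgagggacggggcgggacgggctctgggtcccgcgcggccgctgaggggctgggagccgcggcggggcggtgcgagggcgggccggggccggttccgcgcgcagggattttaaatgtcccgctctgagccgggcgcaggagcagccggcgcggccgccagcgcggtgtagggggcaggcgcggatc
DTL, plus strand, chr1:212035498-212035797: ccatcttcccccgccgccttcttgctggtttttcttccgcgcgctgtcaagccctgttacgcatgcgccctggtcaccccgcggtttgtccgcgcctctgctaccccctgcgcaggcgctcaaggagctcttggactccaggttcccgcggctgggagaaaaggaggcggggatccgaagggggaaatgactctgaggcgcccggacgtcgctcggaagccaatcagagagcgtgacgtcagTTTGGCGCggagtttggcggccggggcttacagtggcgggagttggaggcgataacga
FEN1, plus strand, chr11:61792661-61792960: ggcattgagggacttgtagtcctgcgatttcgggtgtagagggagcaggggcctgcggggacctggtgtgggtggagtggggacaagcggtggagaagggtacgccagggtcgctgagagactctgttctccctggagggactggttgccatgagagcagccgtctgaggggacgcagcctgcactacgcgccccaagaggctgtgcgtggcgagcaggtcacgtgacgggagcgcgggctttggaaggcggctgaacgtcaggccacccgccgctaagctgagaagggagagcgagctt
CDT1, plus strand, chr16:88803539-88803838: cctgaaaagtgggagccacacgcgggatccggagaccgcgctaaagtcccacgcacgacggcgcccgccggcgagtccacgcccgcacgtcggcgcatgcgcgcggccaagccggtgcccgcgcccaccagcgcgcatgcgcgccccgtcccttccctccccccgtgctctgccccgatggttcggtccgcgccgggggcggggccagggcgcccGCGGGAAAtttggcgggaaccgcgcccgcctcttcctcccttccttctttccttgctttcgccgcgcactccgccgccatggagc
CDT1 held TTTCCCGC on the minus strand at position -35 from the start, DTL held TTTGGCGC on the plus strand at position -8, and the windows of CCNE1 and FEN1 held none of the 4 words. In these 4 windows the matches overlapped no CCAAT box.

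Over all 39 genes, 34 matched an entry of the promoter table, with 44 windows because some have several starts; the others were MCM4, MCM5, GINS4, CCNE2 and E2F8. At least 1 of the 4 E2F words was in a window of 20 of these 34 genes (58.8%), against 715 of the 11637 tested genes with an entry (6.14%) and 1090 of all 27305 genes in the table (3.99%). Counted by window, 21 of 44 (47.7%) held one, against 1164 of 35116 in the table (3.31%). The CCAAT box, read as the letters CCAAT on either strand, was in 20 of the 34 genes (58.8%) and in 42.5% of tested genes. The cell cycle genes homology region, read as TTTGAA on either strand, was in 1 of the 34 genes (2.94%) and in 13.9% of tested genes. In NGP the E2F words were found in 5 of 9 genes that rose with JSK591 (55.6%), 5 of 11 that fell (45.5%) and 10 of 14 that did not pass the test (71.4%). In CHLA-20 they were found in 11 of 18 genes that rose (61.1%), 1 of 2 that fell (50%) and 8 of 14 that did not pass (57.1%). These are matches of letters, given as a description.

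In NGP, 10 of the 39 genes rose with JSK591, 14 fell and 15 did not pass the test. Cyclin E genes, the clamp PCNA, the polymerase POLE and the flap endonuclease FEN1 were among those that rose, and DTL, LIG1, CDT1, MCM10, MCM4 and MCM5 among those that fell. Calls rest on the quasi-likelihood test of edgeR at a threshold of 0.05 after Benjamini-Hochberg adjustment over all 19395 genes tested, by which 16.8% of all genes rose, 19.4% fell and 36.2% did either. The median log2 change was -0.03 over the 39 genes and 0.00 over all genes. Both JSK591 libraries were above both DMSO libraries for 14 of the 39 genes (32.3% of all genes) and below both for 16 (32.9% of all genes). As whole cultures were measured, a changed share of cells in S phase and changed RNA per cell cannot be told apart in either line.

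In CHLA-20, 21 of the 39 genes rose with JSK591, 3 fell and 15 did not pass the test, where 16.9% of all genes rose, 22.4% fell and 39.4% did either. FEN1, CCNE1, CDC6, CCNE2, GINS3 and UHRF1 had the highest changes, each over 0.49, and CDT1, POLD1 and E2F8 were the 3 that fell. The median log2 change was 0.13 over the 39 genes and -0.02 over all genes. Both JSK591 libraries were above both DMSO libraries for 26 of the 39 genes (30.6% of all genes) and below both for 7 (36% of all genes). The 39 genes summed to 4221 and 4292 CPM in NGP with JSK591, against 4337 and 4382 CPM with DMSO, and to 4345 and 4296 CPM in CHLA-20 with JSK591, against 3896 and 3916 CPM with DMSO. Such sums weigh abundant genes most: MCM4 alone averaged 565 CPM in NGP with JSK591 and 646 CPM with DMSO. By the calls in NGP, 14 genes fell and 10 rose. On the TMM scale these sums did not overlap between treatments in either line, with JSK591 lower in NGP and higher in CHLA-20. Scaled by total gene counts alone, the NGP libraries overlapped, at 4361 and 4349 CPM with JSK591 against 4359 and 4409 CPM with DMSO, while the CHLA-20 libraries with JSK591 stayed higher, at 4315 and 4244 CPM against 3802 and 3861 CPM with DMSO.

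**Figure D1:**
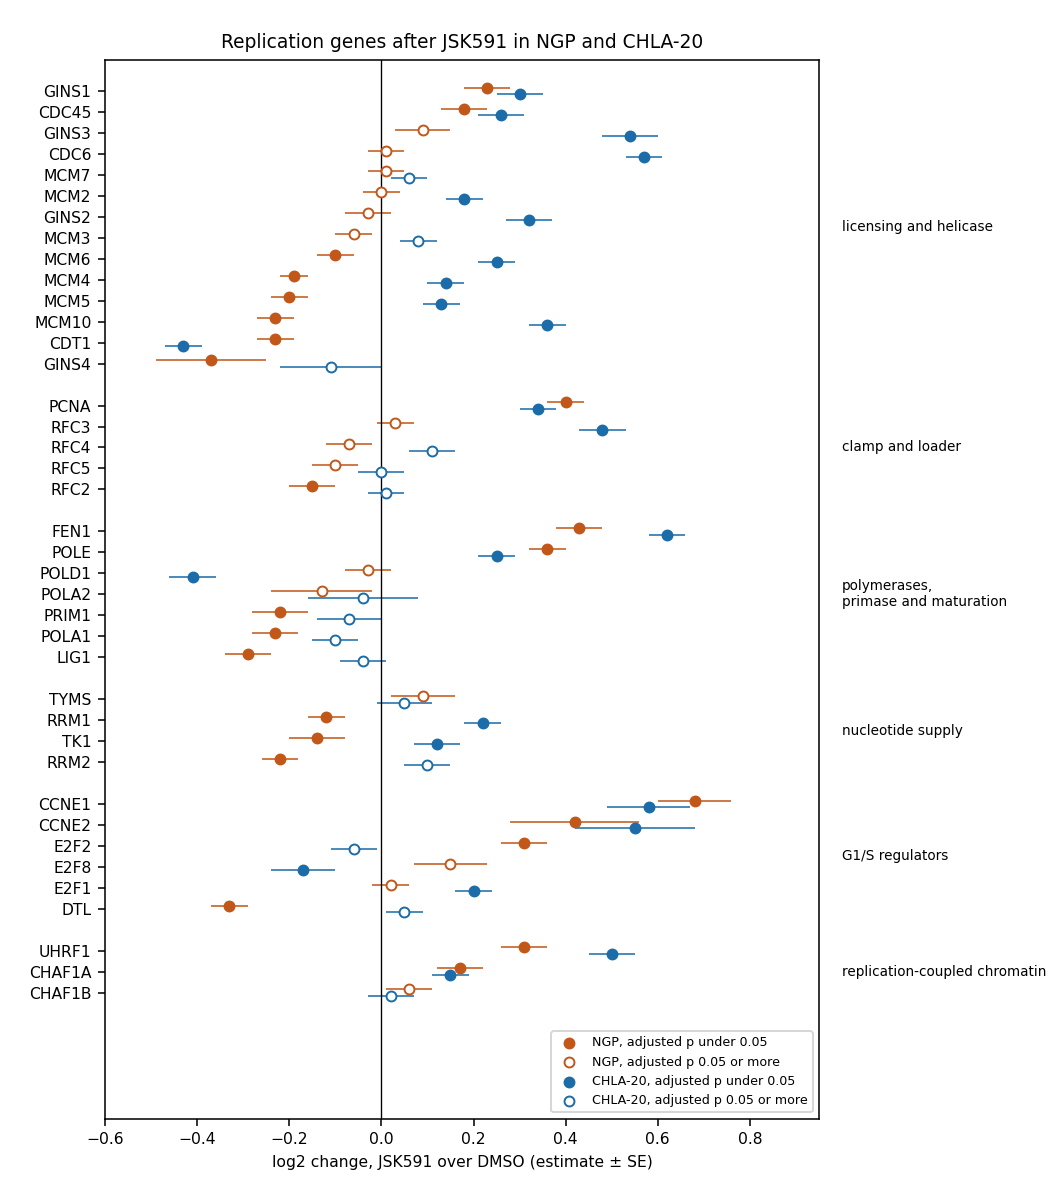
Log2 change of each of the 39 genes with JSK591 over DMSO (x axis, estimate ± SE, 2 libraries per group), in rows by role, for NGP (orange) and CHLA-20 (blue). Filled points have an adjusted p under 0.05. Most licensing and helicase genes sit right of 0 in CHLA-20 and at or left of 0 in NGP, while PCNA, POLE, FEN1, CCNE1, CCNE2 and UHRF1 sit right of 0 in both.

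The effect of JSK591 differed between the lines, NGP minus CHLA-20, for 23 of the 39 genes: 4 had a higher effect in NGP, 19 a lower one and 16 did not pass the test. Of all genes tested, 15.2% had a higher effect in NGP, 12.5% a lower one and 27.7% either. The median difference was -0.16 over the 39 genes and 0.03 over all genes. MCM10, CDC6, GINS3, RFC3 and DTL had the largest negative differences, and POLD1, E2F2, E2F8 and CDT1 the positive ones. Of these 4 positive calls, that of E2F2 was kept under all 15 other settings and that of E2F8 in 8, while with the GC trend removed CDT1 turned to -0.05 and POLD1 was 0.12, neither past the threshold. By the calls in each line, 9 genes rose in both lines (5.72% of all genes did), namely CDC45, GINS1, PCNA, POLE, FEN1, CCNE1, CCNE2, UHRF1 and CHAF1A. Another 6 genes fell in NGP and rose in CHLA-20 (1.92% of all genes), namely MCM4, MCM5, MCM6, MCM10, RRM1 and TK1. Only CDT1 fell in both lines (8.98% of all genes), and 0 genes rose in NGP and fell in CHLA-20 (2.38% of all genes). Of the 6 genes with opposite calls, MCM4 and MCM10 kept both calls under all 15 other settings tried.

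**Figure D2:**
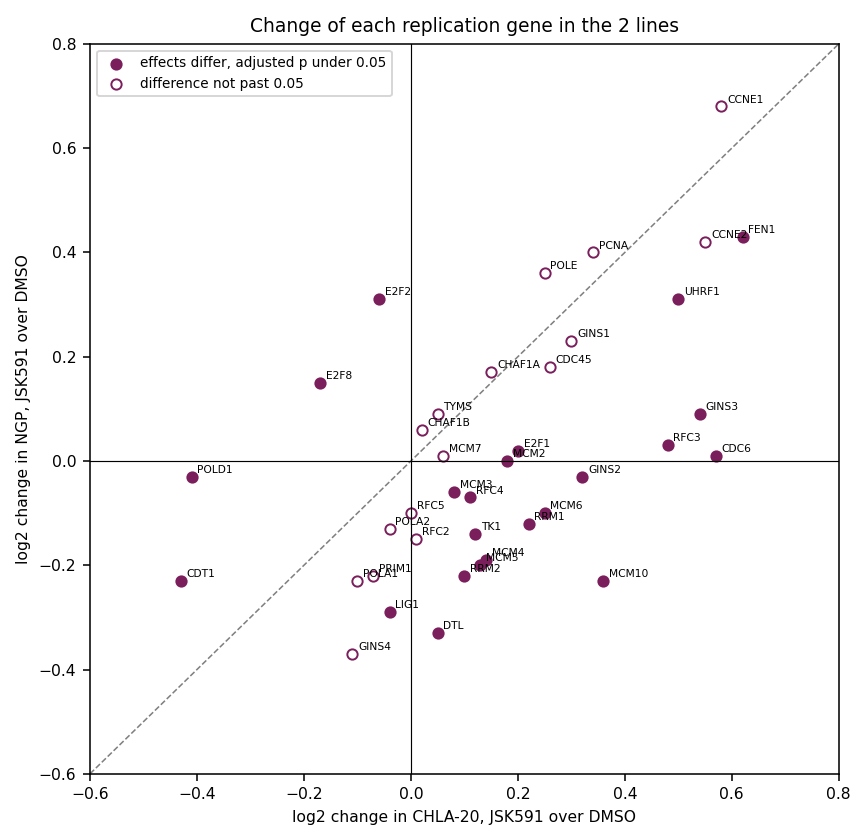
Log2 change with JSK591 over DMSO in CHLA-20 (x axis) and NGP (y axis), 1 point per gene, filled where the difference of the 2 effects has an adjusted p under 0.05. The dashed line marks equal effects. MCM10 lies farthest below it, at -0.23 in NGP and 0.36 in CHLA-20, and CCNE1 lies near it, at 0.68 in NGP and 0.58 in CHLA-20.

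Among the 14 licensing and helicase genes, 2 rose and 6 fell with JSK591 in NGP, and 10 rose and 1 fell in CHLA-20. Over all genes, 16.8% rose and 19.4% fell in NGP, and 16.9% rose and 22.4% fell in CHLA-20. MCM10 promotes the activation of the helicase. MCM10 had 81.6 and 80.8 CPM in NGP with JSK591, against 94.7 and 95.5 CPM with DMSO, a log2 change of -0.23 ± 0.04 (adjusted p = 1.47e-05). In CHLA-20 it had 97.2 and 97.1 CPM with JSK591, against 75.8 and 75.1 CPM with DMSO, a log2 change of 0.36 ± 0.04 (adjusted p = 1.78e-10). JSK591 libraries of MCM10 thus lay below those with DMSO in NGP and above them in CHLA-20, and the effects differed by -0.59 ± 0.06 (adjusted p = 7.59e-12). CDC6 is a loader of the MCM ring. It had 88.6 and 89.3 CPM in NGP with JSK591, against 87.5 and 88.8 CPM with DMSO, and 129 and 132 CPM in CHLA-20 with JSK591, against 91.9 and 83.9 CPM with DMSO. The NGP libraries differed little, with a log2 change of 0.01 ± 0.04, while in CHLA-20 CDC6 rose by 0.57 ± 0.04 (adjusted p = 2.45e-17). CDT1, the partner of CDC6, moved the other way. It had 250 and 257 CPM in NGP with JSK591, against 288 and 306 CPM with DMSO, and 132 and 122 CPM in CHLA-20 with JSK591, against 166 and 176 CPM with DMSO. CDT1 fell by 0.23 ± 0.04 in NGP and by 0.43 ± 0.04 in CHLA-20, without overlap of libraries in either line. With the GC trend removed the CHLA-20 change of CDT1 was -0.24.

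MCM2 to MCM7 form the helicase ring. Together they summed to 1710 and 1750 CPM in NGP with JSK591, against 1850 CPM in both DMSO libraries, and to 1630 and 1600 CPM in CHLA-20 with JSK591, against 1480 and 1500 CPM with DMSO. MCM4 had 560 and 569 CPM in NGP with JSK591, against 641 and 651 CPM with DMSO, and 272 CPM in both CHLA-20 libraries with JSK591, against 244 and 248 CPM with DMSO. MCM4 fell by 0.19 ± 0.03 in NGP and rose by 0.14 ± 0.04 in CHLA-20, and the effects differed by -0.34 ± 0.05 (adjusted p = 2.94e-07). MCM5 had 148 and 152 CPM in NGP with JSK591, against 170 and 175 CPM with DMSO, and 128 and 125 CPM in CHLA-20 with JSK591, against 113 and 117 CPM with DMSO. It fell by 0.20 ± 0.04 in NGP and rose by 0.13 ± 0.04 in CHLA-20. MCM6 had 135 and 140 CPM in NGP with JSK591, against 150 and 145 CPM with DMSO, and 193 and 190 CPM in CHLA-20 with JSK591, against 164 and 158 CPM with DMSO. Its NGP change of -0.10 ± 0.04 was small and its CHLA-20 change of 0.25 ± 0.04 larger, and the effects differed by -0.35 ± 0.06 (adjusted p = 8.05e-07). MCM2 had a log2 change of 0.00 in NGP and rose by 0.18 ± 0.04 in CHLA-20, and MCM3 and MCM7 passed the test in neither line. The 6 subunits of one ring therefore had log2 changes of -0.20 to 0.01 in NGP and of 0.06 to 0.25 in CHLA-20. With the GC trend removed, MCM3 (0.09) and MCM7 (0.12) passed the test in CHLA-20. The MCM6 call in NGP was lost without JSK591 replicate 1 (-0.10), without DMSO replicate 1 (-0.10) and with the GC trend removed (-0.06). It was also lost with total count scaling (-0.08) and with no filter (-0.10). In CHLA-20 the MCM5 call was lost without JSK591 replicate 1 (0.12) or DMSO replicate 1 (0.11), and the MCM2 change was 0.12, not past the threshold, without DMSO replicate 1 and 0.27 without DMSO replicate 2 or with the GC trend removed.

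CDC45 and the 4 GINS subunits join the ring at firing. GINS1 had 46.6 and 46.2 CPM in NGP with JSK591, against 39.7 and 39.3 CPM with DMSO, and 47.1 and 43.5 CPM in CHLA-20 with JSK591, against 36.0 and 37.5 CPM with DMSO. It rose in both lines, by 0.23 ± 0.05 in NGP and 0.30 ± 0.05 in CHLA-20. CDC45 rose by 0.18 ± 0.05 in NGP, where it had 49.4 and 50.8 CPM with JSK591, against 46.5 and 41.7 CPM with DMSO, and by 0.26 ± 0.05 in CHLA-20. GINS3 had 39.1 and 39.7 CPM in NGP with JSK591, against 37.7 and 36.5 CPM with DMSO, and 32.5 and 30.8 CPM in CHLA-20 with JSK591, against 22.4 and 21.0 CPM with DMSO. Its CHLA-20 change of 0.54 ± 0.06 passed the test (adjusted p = 5.83e-11) and its NGP change of 0.09 ± 0.06 did not, and the effects differed by -0.46 ± 0.08 (adjusted p = 1.52e-05). GINS2 likewise had -0.03 ± 0.05 in NGP and 0.32 ± 0.05 in CHLA-20. GINS4, the least abundant of the 4 at 4.41 to 8.01 CPM, fell by 0.37 ± 0.12 in NGP and had -0.11 ± 0.11 in CHLA-20. Members of one complex thus did not share one change in either line. The CDC45 call in NGP was lost without JSK591 replicate 2 (0.16), without DMSO replicate 2 (0.09) and with DESeq2 (0.17). The GINS4 call in NGP was lost without JSK591 replicate 1 (-0.35), without DMSO replicate 1 (-0.35) and with DESeq2 (-0.39).

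The clamp PCNA rose in both lines. PCNA had 180 and 189 CPM in NGP with JSK591, against 138 and 142 CPM with DMSO, a log2 change of 0.40 ± 0.04 (adjusted p = 5.33e-13). In CHLA-20 it had 245 and 241 CPM with JSK591, against 194 and 190 CPM with DMSO, a log2 change of 0.34 ± 0.04 (adjusted p = 3.12e-11). The libraries did not overlap in either line, and the difference of the effects, 0.06 ± 0.05, did not pass the test (adjusted p = 0.435). Of the 4 small subunits of its loader, RFC3 had 88.6 and 90.0 CPM in NGP with JSK591, against 88.1 and 86.3 CPM with DMSO, and 78.0 and 83.5 CPM in CHLA-20 with JSK591, against 56.5 and 59.7 CPM with DMSO. RFC3 rose by 0.48 ± 0.05 in CHLA-20 and had 0.03 ± 0.04 in NGP, and the effects differed by -0.44 ± 0.06 (adjusted p = 1.73e-07). RFC2 fell by 0.15 ± 0.05 in NGP and had 0.01 ± 0.04 in CHLA-20, while RFC4 and RFC5 passed the test in neither line. The loader subunits of one complex therefore had log2 changes of -0.15 to 0.03 in NGP and of 0.00 to 0.48 in CHLA-20. Without NGP JSK591 replicate 2 the RFC2 change was -0.16 and did not pass the test. With RLE scaling the RFC5 change in NGP was -0.12 and passed it.

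Among the 7 polymerase, primase and maturation genes, 2 rose and 3 fell in NGP, and 2 rose and 1 fell in CHLA-20. Over all genes these shares were 16.8% and 19.4% in NGP, and 16.9% and 22.4% in CHLA-20. POLE, the catalytic subunit of the leading strand polymerase, had 310 and 297 CPM in NGP with JSK591, against 234 and 240 CPM with DMSO, and 231 and 223 CPM in CHLA-20 with JSK591, against 192 and 191 CPM with DMSO. It rose by 0.36 ± 0.04 in NGP and by 0.25 ± 0.04 in CHLA-20. POLD1, the catalytic subunit of the lagging strand polymerase, had 69.4 and 65.3 CPM in NGP with JSK591, against 68.4 and 69.6 CPM with DMSO, and 68.6 and 70.9 CPM in CHLA-20 with JSK591, against 87.1 and 97.6 CPM with DMSO. It had -0.03 ± 0.05 in NGP and fell by 0.41 ± 0.05 in CHLA-20, where its level with JSK591, as counted, was close to that in NGP. The difference of these effects, 0.37 ± 0.07, was 0.24 without CHLA-20 DMSO replicate 2. With the GC trend removed it was 0.12 and no longer passed the test. The CHLA-20 change of POLD1 was then -0.23, and the 2 vehicle-treated lines differed by 0.00. FEN1, which trims the flaps of lagging strand fragments, had 64.5 and 66.0 CPM in NGP with JSK591, against 50.5 and 46.6 CPM with DMSO, and 107 and 109 CPM in CHLA-20 with JSK591, against 70.7 and 70.3 CPM with DMSO. FEN1 rose by 0.43 ± 0.05 in NGP and by 0.62 ± 0.04 in CHLA-20, a fold of 1.34 in NGP and 1.53 in CHLA-20. LIG1, the ligase that seals the same fragments, had 64.0 and 64.8 CPM in NGP with JSK591, against 76.8 and 81.2 CPM with DMSO, and 68.5 and 65.8 CPM in CHLA-20 with JSK591, against 67.4 and 70.2 CPM with DMSO. It fell by 0.29 ± 0.05 in NGP and had -0.04 ± 0.05 in CHLA-20, so FEN1 and LIG1 moved in opposite directions in NGP. POLA1, the polymerase alpha subunit that extends primers, fell by 0.23 ± 0.05 in NGP and had -0.10 ± 0.05 in CHLA-20, and the difference of the effects did not pass the test (adjusted p = 0.192). PRIM1, the catalytic primase subunit, fell by 0.22 ± 0.06 in NGP and had -0.07 ± 0.07 in CHLA-20, and the difference did not pass the test either (adjusted p = 0.229). POLA2, an accessory subunit at 5.94 to 9.87 CPM, passed the test in neither line. With the GC trend removed, the CHLA-20 change of POLA1 was -0.14 and passed the test.

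**Figure D3:**
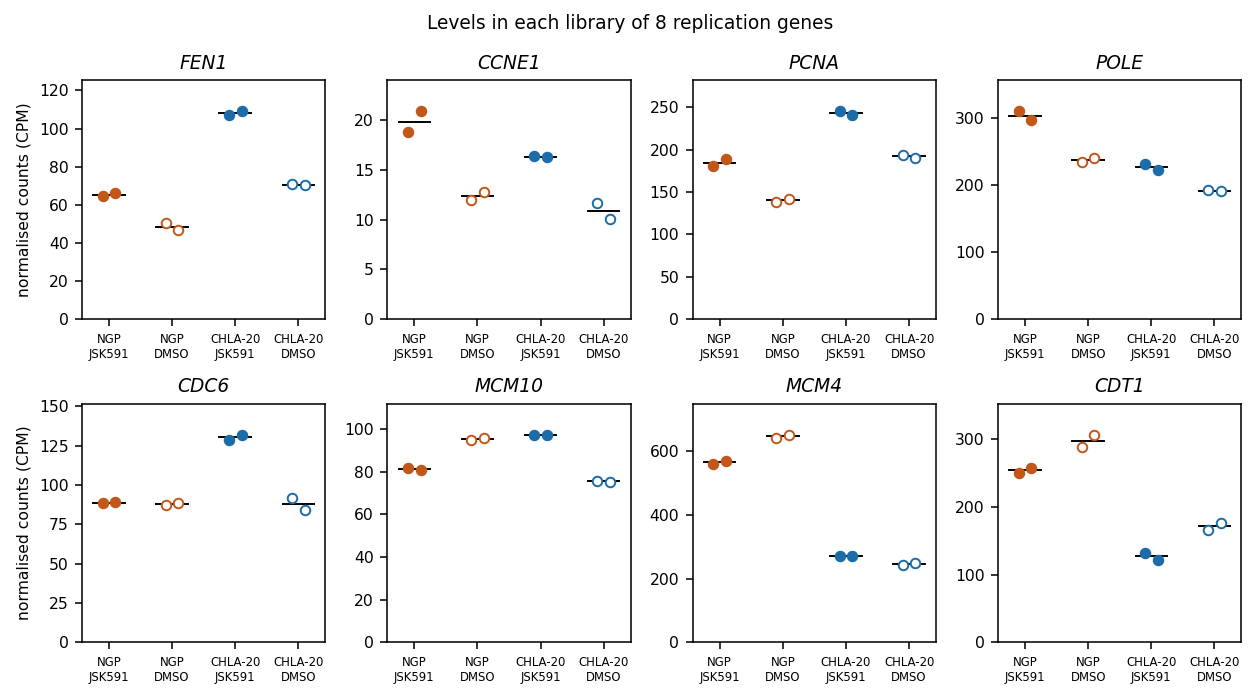
Level of 8 genes in each library (y axis, normalised counts in CPM, from 0), with JSK591 (filled) left of DMSO (open) in NGP and then in CHLA-20; black lines are means of 2 libraries. FEN1, CCNE1, PCNA and POLE are higher with JSK591 in both lines, CDC6 in CHLA-20, MCM10 and MCM4 fall in NGP and rise in CHLA-20, and CDT1 is lower in both.

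Of the 4 genes of nucleotide supply, 0 rose and 3 fell in NGP, and 2 rose and 0 fell in CHLA-20. Over all genes these shares were 16.8% and 19.4% in NGP, and 16.9% and 22.4% in CHLA-20. Another 8 genes of nucleotide supply, not on the list, went otherwise in NGP, where 3 rose and 0 fell. In CHLA-20, 7 of those 8 rose and 0 fell. RRM1 and RRM2 encode the 2 subunits of ribonucleotide reductase, which makes deoxyribonucleotides. RRM2 had 105 and 111 CPM in NGP with JSK591, against 124 and 128 CPM with DMSO, and 83.1 and 90.7 CPM in CHLA-20 with JSK591, against 82.6 and 79.7 CPM with DMSO. It fell by 0.22 ± 0.04 in NGP and had 0.10 ± 0.05 in CHLA-20, and the effects differed by -0.32 ± 0.06 (adjusted p = 6.68e-05). RRM1 had 114 and 117 CPM in NGP with JSK591, against 128 and 124 CPM with DMSO, and 198 and 207 CPM in CHLA-20 with JSK591, against 182 and 166 CPM with DMSO. It fell by 0.12 ± 0.04 in NGP and rose by 0.22 ± 0.04 in CHLA-20, and the effects differed by -0.34 ± 0.06. TK1, which salvages thymidine, had 34.1 and 35.7 CPM in NGP with JSK591, against 36.2 and 40.5 CPM with DMSO, and 99.2 and 95.2 CPM in CHLA-20 with JSK591, against 89.8 and 89.7 CPM with DMSO. It had log2 changes of -0.14 ± 0.06 in NGP (adjusted p = 0.0477) and 0.12 ± 0.05 in CHLA-20 (adjusted p = 0.0361), both close to the threshold. TYMS, which makes thymidylate from deoxyuridylate, had 0.09 ± 0.07 in NGP and 0.05 ± 0.06 in CHLA-20 and passed the test in neither. In NGP the RRM1 call was lost without JSK591 replicate 1 (-0.13) or DMSO replicate 1 (-0.12), or with the GC trend removed (-0.08). It was also lost with total count scaling (-0.10) and with no filter (-0.12). The TK1 call in NGP was kept in 7 of 15 settings, with a change of -0.13 without JSK591 replicate 1, -0.17 without JSK591 replicate 2 and -0.07 without DMSO replicate 2, none past the threshold, and -0.24 without DMSO replicate 1. In CHLA-20 the TK1 change was 0.09 without JSK591 replicate 1, 0.12 without DMSO replicate 1 and 0.14 without DMSO replicate 2. None of these was past the threshold, nor was the change with DESeq2 (0.12) or with no filter (0.12). With the GC trend removed the TK1 change was 0.26. With total count scaling the RRM2 change in CHLA-20 was 0.11 and passed the test.

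Among the 6 regulators of G1 to S, 3 rose and 1 fell in each line. Over all genes these shares were 16.8% and 19.4% in NGP, and 16.9% and 22.4% in CHLA-20. CCNE1, the cyclin that drives entry into S phase, had 18.8 and 20.9 CPM in NGP with JSK591, against 12.0 and 12.8 CPM with DMSO, a log2 change of 0.68 ± 0.08 (adjusted p = 3.63e-10). In CHLA-20 it had 16.4 and 16.3 CPM with JSK591, against 11.7 and 10.1 CPM with DMSO, a log2 change of 0.58 ± 0.09 (adjusted p = 6.24e-08). CCNE1 was 1.6-fold higher in NGP and 1.5-fold higher in CHLA-20, without overlap of libraries. CCNE2, the other cyclin E gene, had 4.88 and 5.85 CPM in NGP with JSK591, against 4.17 and 3.83 CPM with DMSO. In CHLA-20 it had 5.74 and 7.25 CPM with JSK591, against 4.38 and 4.47 CPM with DMSO. It rose by 0.42 ± 0.14 in NGP and by 0.55 ± 0.13 in CHLA-20. DTL, the receptor of the ubiquitin ligase that removes CDT1 protein in S phase, had 164 and 167 CPM in NGP with JSK591, against 208 and 207 CPM with DMSO, and 164 and 166 CPM in CHLA-20 with JSK591, against 163 and 155 CPM with DMSO. DTL fell by 0.33 ± 0.04 in NGP (adjusted p = 2.47e-10) and had 0.05 ± 0.04 in CHLA-20, so that its 4 JSK591 libraries lay at about one level. The NGP call of CCNE2 was lost without JSK591 replicate 2 (0.29) or DMSO replicate 2 (0.35), with DESeq2 (0.41) and with no filter (0.42). Its CHLA-20 call was lost without JSK591 replicate 2 (0.38).

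The 3 E2F genes of the list had 3 patterns. E2F2, an activating factor, had 81.6 and 80.4 CPM in NGP with JSK591, against 63.1 and 67.3 CPM with DMSO, and 54.6 and 50.7 CPM in CHLA-20 with JSK591, against 54.8 and 55 CPM with DMSO. It rose by 0.31 ± 0.05 in NGP and had -0.06 ± 0.05 in CHLA-20, and the effects differed by 0.37 ± 0.07 (adjusted p = 1.87e-05). E2F1, also an activator, had 135 and 143 CPM in NGP with JSK591, against 136 and 139 CPM with DMSO, and 131 and 123 CPM in CHLA-20 with JSK591, against 108 and 112 CPM with DMSO. It had 0.02 ± 0.04 in NGP and rose by 0.20 ± 0.04 in CHLA-20, a change that was 0.36 with the GC trend removed. E2F8, a repressor, had 12.8 and 12.5 CPM in NGP with JSK591, against 11.4 and 11.3 CPM with DMSO, and 20.1 and 20.9 CPM in CHLA-20 with JSK591, against 22.9 and 23.0 CPM with DMSO. Its NGP change of 0.15 ± 0.08 did not pass the test, and its CHLA-20 change of -0.17 ± 0.07 passed narrowly (adjusted p = 0.0494). That E2F8 call was kept in 2 of 15 other settings, with changes of -0.19 to -0.14, and was lost without each of the 8 libraries in turn.

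Of the 3 genes of replication-coupled chromatin, 2 rose and 0 fell in each line. Over all genes these shares were 16.8% and 19.4% in NGP, and 16.9% and 22.4% in CHLA-20. UHRF1, which guides maintenance methylation to newly copied DNA, had 60.5 and 58.3 CPM in NGP with JSK591, against 48.1 CPM in both DMSO libraries, and 82.6 and 79.7 CPM in CHLA-20 with JSK591, against 53.7 and 61.0 CPM with DMSO. It rose by 0.31 ± 0.05 in NGP (adjusted p = 2.13e-06) and by 0.50 ± 0.05 in CHLA-20 (adjusted p = 5.52e-13). CHAF1A and CHAF1B encode subunits of CAF-1, which places histones behind the fork. CHAF1A had 73.7 and 71.7 CPM in NGP with JSK591, against 62.2 and 67.1 CPM with DMSO, and 129 and 125 CPM in CHLA-20 with JSK591, against 112 and 118 CPM with DMSO. CHAF1A rose by 0.17 ± 0.05 in NGP and by 0.15 ± 0.04 in CHLA-20, whereas CHAF1B had 0.06 ± 0.05 in NGP and 0.02 ± 0.05 in CHLA-20 and passed the test in neither line. The CHAF1A call was lost in NGP without JSK591 replicate 1 (0.13) or DMSO replicate 1 (0.09), and in CHLA-20 without JSK591 replicate 1 (0.12) or DMSO replicate 1 (0.12).

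A list of 65 further replication genes, all of which passed the filter, was read in the same fit. In NGP, 15 rose (23.1%) and 16 fell (24.6%), with a median log2 change of 0.02, where 16.8% of all genes rose and 19.4% fell, so both shares were near those of all genes. In CHLA-20, 33 rose (50.8%) and 10 fell (15.4%), with a median of 0.15, where 16.9% of all genes rose and 22.4% fell. The effect was higher in NGP for 8 (12.3%) and lower for 25 (38.5%), where 15.2% of all genes had a higher effect and 12.5% a lower one. In NGP the highest 3 past the threshold were E2F7, a repressor (0.53 ± 0.07), POLE4, a polymerase epsilon subunit (0.40 ± 0.13), and DTYMK, a thymidylate kinase (0.35 ± 0.05). The lowest 3 were PRIM2, the large primase subunit (-0.57 ± 0.06), ATAD5, which unloads PCNA (-0.57 ± 0.05), and ORC1, a subunit of the origin recognition complex (-0.52 ± 0.05). In CHLA-20 the highest 3 were TIPIN of the fork protection complex (0.58 ± 0.09), RRM2B, an alternative ribonucleotide reductase subunit (0.50 ± 0.06), and HELLS, a chromatin remodeller (0.39 ± 0.06). The lowest 3 were POLD4 (-1.66 ± 0.41), E2F5 (-0.49 ± 0.12) and POLD2 (-0.43 ± 0.04). POLD2, POLD3 and POLD4 encode the other subunits of the polymerase of POLD1, which fell in CHLA-20 as well. POLD2 had 253 CPM in both NGP libraries with JSK591, against 268 and 277 CPM with DMSO, and 170 and 165 CPM in CHLA-20 with JSK591, against 222 and 230 CPM with DMSO. POLD4 was low in every library, at 0.267 to 0.947 CPM. POLD3 passed the test in neither line, with overlapping libraries and log2 changes of 0.03 ± 0.05 in NGP and 0.04 ± 0.06 in CHLA-20, so a fall was not common to the 4 subunits.

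ORC1 and PRIM2 were read beside the listed genes of the same steps. ORC1 had 50.1 and 53.3 CPM in NGP with JSK591, against 74.3 CPM in both DMSO libraries, and 32.9 and 31.6 CPM in CHLA-20 with JSK591, against 40.3 and 40.5 CPM with DMSO, and like CDT1 it fell in both lines. The other subunits of its complex did not share this: ORC6 rose by 0.32 ± 0.05 in NGP and by 0.35 ± 0.05 in CHLA-20, ORC2 (0.33) and ORC4 (0.18) rose in CHLA-20, ORC5 fell by 0.31 in NGP, and ORC3 passed the test in neither line. PRIM2 had 25.4 and 24.6 CPM in NGP with JSK591, against 36.5 and 37.6 CPM with DMSO, and 16.1 and 15.6 CPM in CHLA-20 with JSK591, against 16.3 and 17.1 CPM with DMSO. Like PRIM1 and POLA1, PRIM2 fell in NGP and did not pass the test in CHLA-20. The effects on PRIM2 differed between the lines by -0.49 ± 0.10 (adjusted p = 4.35e-05), while the differences of PRIM1 and POLA1 did not pass the test. Past the threshold, the largest differences of effects on the side of NGP were POLD4 (2.03), CHTF18 (0.59) and RECQL4 (0.35). On the side of CHLA-20 they were POLE3 (-0.57), TIPIN (-0.54) and CDC25A (-0.49). CHTF18, RECQL4 and POLD4 are rich in GC, at 66.6%, 65.3% and 60.5%, and their values with the GC trend removed were not read.

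Vehicle-treated cells of the 2 lines also differed. Of the 39 genes, 16 were higher in NGP with DMSO than in CHLA-20 with DMSO, 14 were lower and 9 did not pass the test, where 36.6% of all genes were higher, 38.9% lower and 75.5% either. The median log2 difference was 0.08 over the 39 genes and -0.02 over all genes. For 19 genes both NGP libraries were above both CHLA-20 libraries (42.5% of all genes) and for 16 below both (44.1% of all genes). MCM4 had the largest positive difference, with 641 and 651 CPM in NGP and 244 and 248 CPM in CHLA-20, a log2 difference of 1.39 ± 0.04. CDT1 followed at 0.80 ± 0.04 and GINS3 at 0.77 ± 0.06. The genes of nucleotide supply were lower in NGP but for RRM2. TK1 had 36.2 and 40.5 CPM in NGP and 89.8 and 89.7 CPM in CHLA-20, a log2 difference of -1.23 ± 0.05. TYMS had 23.1 and 23.3 CPM in NGP and 42.5 and 47.2 CPM in CHLA-20, a log2 difference of -0.95 ± 0.06. E2F8 differed by -1.01 ± 0.08 and CHAF1A by -0.83 ± 0.04. CDC6 did not differ past the threshold, at 0.00 ± 0.04, nor did GINS1, GINS2, CDC45, RFC5, POLA1, CCNE1, CCNE2 and CHAF1B. With the GC trend removed, the differences of UHRF1 (-0.26) and MCM2 (-0.25) were -0.03 and -0.01 and no longer passed the test, that of POLD1 (-0.42) was 0.00, and those of CDT1 and E2F1 (0.32) were larger, at 1.23 and 0.68. Without CHLA-20 DMSO replicate 2 the UHRF1 difference was -0.15, and the MCM6 difference of -0.13 was -0.11 without CHLA-20 DMSO replicate 1 and -0.07 without NGP DMSO replicate 2, neither past the threshold.

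Because tumour lines gain and lose chromosome segments, each gene's difference between lines was set beside the genes around it, up to 10 on each side with a mean of at least 1 CPM. RRM2, on the short arm of chromosome 2 as is MYCN, differed by 0.63, its neighbours had a median of 0.77, and 17 of 20 were higher in NGP. TYMS differed by -0.95 and its 15 neighbours by a median of -1.33, and RRM1 by -0.46 and its 20 neighbours by a median of -0.50. MCM7, POLD1 and RFC2 also lay near their neighbours, at -0.41, -0.42 and -0.71 beside medians of -0.43, -0.40 and -0.59. These values are as counted: with the GC trend removed the 3 genes had -0.23, 0.00 and -0.62, and their neighbours were not recomputed. Other genes lay apart from theirs. MCM4 differed by 1.39 beside a median of 0.43, with 12 of 20 neighbours higher in NGP, CDT1 by 0.80 beside -0.21, and E2F8 by -1.01 beside 0.27. Neighbours were taken by order and so spanned unlike lengths, 11.3 megabases for MCM4, 6.6 for E2F8 and 1.5 for CDT1. For the genes near their neighbours the span was 0.6 megabases (MCM7) to 3.6 megabases (RRM1). Copy number was not measured here, and its part in the differences was not tested.

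**Figure D4:**
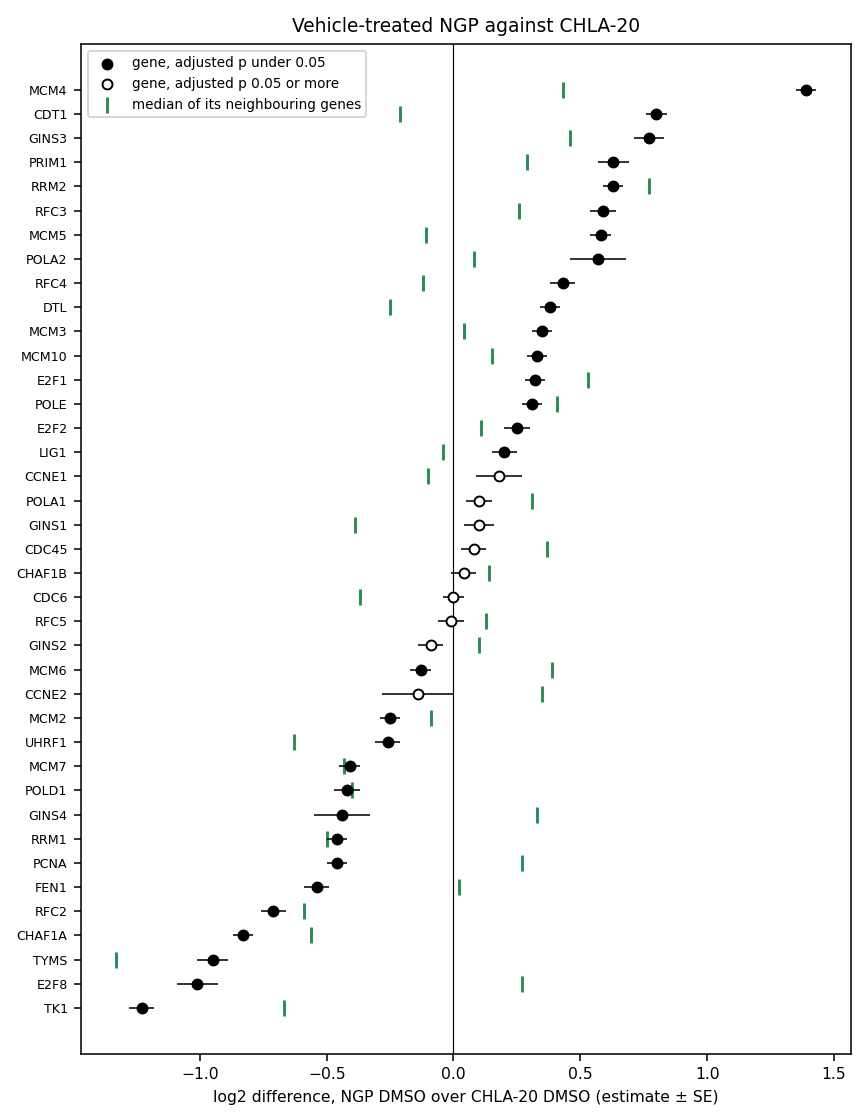
Log2 difference of each gene between NGP with DMSO and CHLA-20 with DMSO (x axis, estimate ± SE, 2 libraries per group), in order, with the median of its neighbouring genes as a green mark. MCM4 stands at 1.39 and TK1 at -1.23, RRM2 is close to its neighbours' mark, and MCM4, CDT1 and E2F8 are far from theirs.

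Levels were compared between genes per kilobase of merged exons of all annotated transcripts. In this unit the most abundant genes were PCNA, MCM3 and MCM7 in each of the 4 groups, and the least abundant were POLA2, GINS4 and CCNE2. PCNA had 126 CPM per kilobase in NGP with JSK591 and 95.2 in NGP with DMSO, and 165 in CHLA-20 with JSK591 and 131 in CHLA-20 with DMSO. The 6 subunits of the MCM ring were unequal in this measure. The highest was 4.69 times the lowest in NGP with JSK591 and 4.56 times in NGP with DMSO, with MCM3 highest, and 7.67 times in CHLA-20 with JSK591 and 8.03 times in CHLA-20 with DMSO, with MCM7 highest. MCM5 was lowest except in NGP with DMSO, where MCM2 was. Merged exons count every annotated variant as present, so a gene with long rare variants reads too low. The exonic bases of TYMS (46.6%), CCNE2 (37.1%), POLA2 (35.1%), MCM2 (23.6%), GINS4 (23.6%), PRIM1 (21.6%) and RRM2 (20.2%) are shared with another gene, and since no source used here says whether reads were counted by strand, their counts are less certain.

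The 39 genes spanned 38.5% to 65.2% of GC over their annotated transcripts, with a median of 50.7%, against 48.6% over all genes tested. Over the 39 genes, which share the same libraries, log2 change and GC content had a Pearson r of 0.01 in NGP and -0.34 in CHLA-20, and over all 19395 genes of 0.06 in NGP and -0.15 in CHLA-20. The difference of effects, NGP minus CHLA-20, had an r of 0.39 over the 39 genes and 0.16 over all genes. With the GC trend of each library removed, r over the 39 genes was -0.12 in NGP, -0.11 in CHLA-20 and -0.02 for the difference of effects. The genes richest in GC were CDT1 (65.2%), POLD1 (64.8%), E2F1 (62.5%) and TK1 (61.7%), and these moved most in CHLA-20. CDT1 and POLD1 had changes of -0.24 and -0.23 there with the trend removed, against -0.43 and -0.41 as counted, and both still passed the test. CDC6, FEN1 and CCNE1, at 45.1%, 54.4% and 50.7% of GC, had 0.55, 0.65 and 0.59 in CHLA-20 with the trend removed, close to 0.57, 0.62 and 0.58 as counted. Whether GC content set the changes was not tested.

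**Figure D5:**
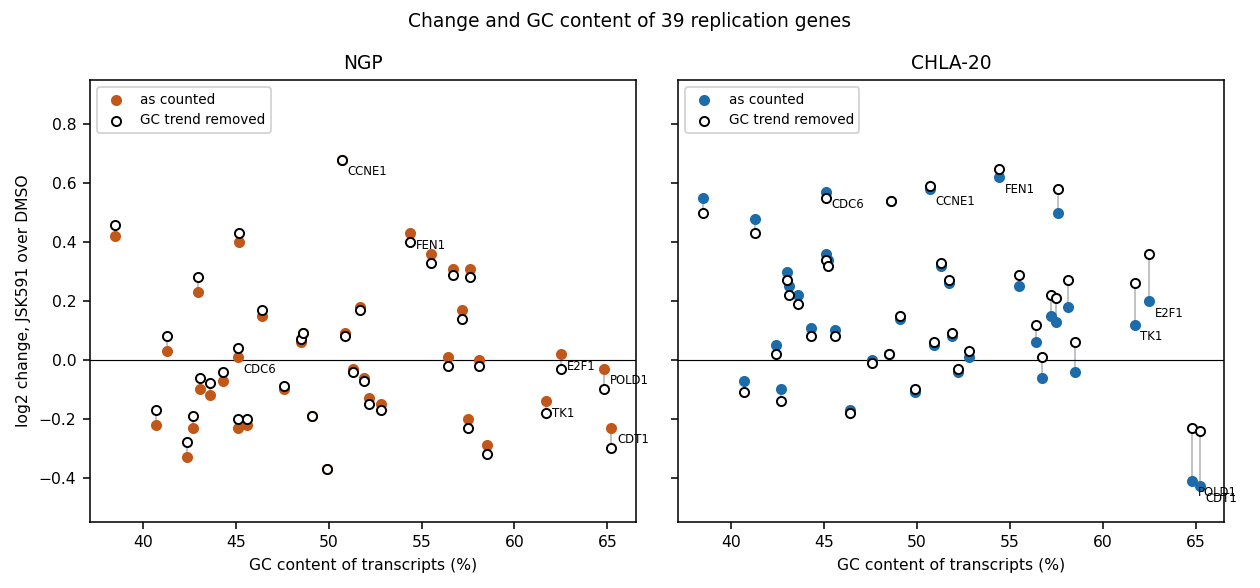
Log2 change with JSK591 over DMSO (y axis) against the GC content of each gene's transcripts (x axis, %), in NGP (left) and CHLA-20 (right). The 39 genes are shown as counted (filled) and with the GC trend of each library removed (open). Grey lines join the 2 values of a gene. In CHLA-20, CDT1, POLD1, E2F1 and TK1 at the right end move upward and the genes of lower GC move less.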

How the data were processed

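Messenger RNA was measured in 8 libraries, 2 in each of 4 groups. The authors deposited raw counts for each gene, without normalisation. STAR, HTSeq and DESeq2 on GRCh38 (hg38) are named, per the submitters' processing notes. Versions, annotation and strand setting are not given in the sources used here. All 58721 identifiers of each library matched GENCODE release 29. Rows that name no gene were left out: reads outside genes were 5.15% to 6.86% of counted reads, ambiguous ones 6.77% to 7.18% and multiply aligned ones 19.2% to 22%.

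Counts were fitted with edgeR 4.0.16 in R 4.3.3: filterByExpr over the groups (19395 genes left), TMM scaling and 1 quasi-likelihood model of the 4 groups without a block. The model had 4 residual degrees of freedom, and its biological coefficient of variation was 2.76%. It was read for JSK591 over DMSO within NGP and within CHLA-20, for the NGP effect minus the CHLA-20 effect, and for vehicle-treated NGP over vehicle-treated CHLA-20. P-values were adjusted by Benjamini-Hochberg over all genes tested, with a threshold of 0.05. The chi-square of replicate pairs, divided by its degrees of freedom, was 2.16 to 3.36, so no pair was counted as 1 sample. Other settings were RLE or total count scaling, DESeq2 1.42.0, no filter, a replicate block, removal of each library's GC trend, block and GC together, and leaving out each library. The floor of 3 counts allows for counting error alone, as reads with no molecular identifiers may be copies.

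All 39 genes could be named. Of the 65 further genes, those named are the 3 highest and 3 lowest per contrast past the threshold whose groups do not overlap (for the difference of effects, past the threshold only), and ORC1, PRIM2 and POLD2, with the other ORC genes and POLD3, were described in more detail after their values were seen. Promoters were printed for the highest and lowest listed gene past the threshold per line, leaving out chromosome 8, where GINS4, the lowest in NGP, lies. The genes and lists were chosen with earlier results of these data known.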

Additional observations from a re-analysis of the deposited data

Results flagged for a closer look

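The effect of JSK591 differed between the 2 lines, by the test of NGP minus CHLA-20 itself, for 23 of the 39 genes. By the same test 27.7% of all genes tested differed, 15.2% with a higher effect in NGP and 12.5% with a lower one. Of licensing and helicase genes, the difference in log2 change was -0.59 for MCM10, -0.56 for CDC6, -0.46 for GINS3, -0.35 for MCM6, -0.35 for GINS2, -0.34 for MCM4, -0.34 for MCM5, -0.18 for MCM2, -0.14 for MCM3 and 0.20 for CDT1. Of clamp loader, polymerase and maturation genes, it was -0.44 for RFC3, -0.18 for RFC4, -0.26 for LIG1, -0.19 for FEN1 and 0.37 for POLD1. Of the genes of nucleotide supply, it was -0.34 for RRM1, -0.32 for RRM2 and -0.25 for TK1. Of regulators and chromatin genes, it was -0.38 for DTL, -0.19 for E2F1, 0.37 for E2F2, 0.32 for E2F8 and -0.19 for UHRF1. FEN1 and UHRF1 rose in both lines and CDT1 fell in both, so their differences are of size and not of direction. The differences of MCM2, MCM3, RFC4, FEN1, E2F1, UHRF1, CDT1, E2F8 and POLD1 were lost under at least 1 other setting. Those of the other 14 genes were kept under all 15. With no filter on low counts 8 of the 23 calls were lost, with DESeq2 3 and with total count scaling 3. Values no longer past the threshold were -0.19 for RFC4 and 0.25 for E2F8 without NGP JSK591 replicate 1, and -0.17 for UHRF1 without NGP JSK591 replicate 2. Without NGP DMSO replicate 1 they were 0.10 for CDT1, -0.19 for RFC4, -0.19 for FEN1 and 0.27 for E2F8, and without NGP DMSO replicate 2 it was 0.27 for E2F8. Without CHLA-20 JSK591 replicate 1 they were -0.16 for MCM2, -0.12 for MCM3, -0.17 for RFC4, -0.14 for E2F1, 0.29 for E2F8 and -0.17 for UHRF1. Without CHLA-20 JSK591 replicate 2 they were -0.15 for MCM3, 0.14 for CDT1, -0.19 for RFC4 and -0.18 for FEN1. Without CHLA-20 DMSO replicate 1 they were -0.12 for MCM2, -0.15 for MCM3, -0.17 for RFC4, -0.16 for E2F1 and -0.11 for UHRF1, and without CHLA-20 DMSO replicate 2 they were 0.11 for CDT1 and 0.27 for E2F8. Other values stayed past the threshold and moved by over 1.5 times: -0.39 for TK1 without NGP DMSO replicate 1, -0.29 for FEN1 without NGP DMSO replicate 2, and -0.29 for MCM2, -0.33 for UHRF1 and 0.24 for POLD1 without CHLA-20 DMSO replicate 2. With the GC trend removed, -0.05 for CDT1, -0.12 for RFC4 and 0.12 for POLD1 were no longer past the threshold, -0.29 for MCM2, -0.43 for TK1, -0.39 for E2F1 and -0.30 for UHRF1 stayed past it and were over 1.5 times as large, and -0.14 for MCM7 and -0.20 for RFC2 passed it there.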

How the results depend on the processing

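Under the 15 other settings, 7 of 10 genes that rose and 9 of 14 that fell in NGP kept their calls in all, as did 16 of 21 that rose and 2 of 3 that fell in CHLA-20, 1 of 4 higher and 13 of 19 lower differences of effects, and 16 of 16 higher and 10 of 14 lower differences between vehicle-treated lines. With DESeq2, 1817 of all genes rose in NGP, against 3266 by edgeR, and 1641 had a higher effect in NGP, against 2950. Of the 39 genes, 4 had a higher effect in NGP. This count was 2 with no filter, 2 with the GC trend removed, 2 with block and GC trend removal together, and 2 to 4 over the leave-one-out fits, in which a group left with 1 library is assumed to vary like the others. The difference of effects of CDT1 (0.20) was -0.05 with the GC trend removed, with or without the block. The difference of POLD1 between vehicle-treated lines (-0.42) was 0.00 with the GC trend removed, with or without the block. The cause was not tested.

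Replicate numbers did not pair the libraries: deviations of same-numbered libraries correlated by -0.045 to 0.025. With the replicate block, 10 genes rose and 14 fell in NGP, 21 rose and 2 fell in CHLA-20, 4 and 19 effects differed, and 16 and 14 genes differed between vehicle-treated lines.

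With 2 libraries a group, changes of about 0.15 or less in log2 lay near the threshold, and most calls of that size were lost under some setting. The lowest genes, POLA2, GINS4 and CCNE2, had SEs of 0.11 to 0.19, so that smaller changes of theirs were not detectable.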
